A study of Arabidopsis thaliana with 8 samples.

Results

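Transcripts of 4 Arabidopsis thaliana genes were compared between a photosynthesis mutant and wild type: the histone H3 genes AT1G13370, AT5G65360 and AT1G09200 and the kinesin gene AT2G37420. They were taken as the probes that the array's annotation pairs with exactly 1 of these 4 genes, which gave 1 probe per gene, 4 of the 692 single-gene probes and of the 3439 probes in all. The choice was made with the petc against WT values of these arrays known, so that comparison is given for these 4 genes as a description, with no p-value for any of them. Counts of them past a threshold are set beside the share of all probes and read no further. The study measured total RNA of 8 samples of the ecotype Landsberg on an expression array, with 1 intensity per probe and sample. The WT group had 4 samples and the petc group 4, numbered 1 to 4 in each. The petc mutant is without the Rieske protein, an iron-sulfur subunit of the cyt b6f complex that carries photosynthetic electrons. The sources used here do not give the mutant allele, the tissue, its age or how the plants were grown, nor whether the numbers stand for separate plants or for repeated readings. The p-values below therefore rest on a spread between samples that may be only technical.

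Histone H3 is one of the core proteins around which nuclear DNA is wrapped in nucleosomes. The H3.1 form is put in place behind the replication fork, and its transcripts are known to be abundant in cells that copy their DNA, as in meristems and young leaves. Kinesins are motor proteins that move along microtubules with energy from ATP, and many plant kinesins work in the spindle and in the phragmoplast that builds the new cell wall. The names histone 3.1 for AT5G65360 and AT1G09200 come from RefSeq, while AT1G13370 and AT2G37420 carry only their family here. The H3 genes have near-identical copies elsewhere in the genome, and probe sequences were not used here, so signal from such copies on these probes cannot be told apart. H3.1 genes and kinesins of the spindle or phragmoplast can be read as a gauge of dividing tissue. The sources used here do not place AT1G13370 in the H3.1 form or AT2G37420 in cell division. For these genes that reading was not established. In bulk samples fewer dividing cells and less RNA per cell cannot be told apart.

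Between 2978 and 3009 of the 3439 probes per sample were above 0, and all 4 genes were above 0 in all 8 samples. Summed intensities were 3287 to 3440 per sample, and no columns were identical. PETC, the gene affected in the mutant, is not analysed here and gave no check of the labels. The samples of a group formed close pairs: Spearman's rho across probes was 0.975 to 0.988 between numbers 1 and 2 or between 3 and 4 of a group, and 0.9003 to 0.922 between these sets. Values are therefore given for each number and each set. No label says what a number or a set stands for.

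All 4 genes were lower in petc than in WT at each of the 4 replicate numbers, in deposited intensity. The petc value of AT1G13370 was 43.0% to 56.9% of the WT value with the same number. For AT2G37420 the share was 67.2% to 77.7%, for AT1G09200 60.7% to 87.2%, and for AT5G65360 72.7% to 91.2%. Of all probes with a value in every sample, 27.3% were lower in petc at all 4 numbers, and nothing is read from the 4 of 4 here, since the genes were chosen on this comparison.

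The histone H3 gene AT1G13370 had the widest difference of the 4. Its deposited intensity in WT was 2.53, 1.996, 4.63 and 5.24 in replicates 1 to 4. In petc it was 1.44, 1.09, 2.16 and 2.25. The high WT samples were numbers 3 and 4, and the petc samples of those numbers overlapped with WT replicate 2. Within each set both petc values lay under both WT values. The log2 difference, petc minus WT, was -1.23 ± 0.37 (SE, n = 4 per group, limma on quantile-normalised values), a level 2.35-fold higher in WT. Taken by set, the difference was -0.97 in the first (numbers 1 and 2) and -1.49 in the second (numbers 3 and 4), and it was -1.001 over all samples with the values as deposited.

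The H3.1 gene AT1G09200 differed more between the sets than between the genotypes. Its WT intensities were 0.295, 0.335, 0.935 and 0.855 in replicates 1 to 4. The petc intensities were 0.257, 0.258, 0.586 and 0.519. Both groups were low in numbers 1 and 2 and high in numbers 3 and 4, so the groups overlapped over all samples while petc was below WT within each set. On the log2 scale petc minus WT was -0.53 ± 0.45 (SE, n = 4 per group), or -0.31 for the first set and -0.75 for the second. Single samples moved it widely, to -0.25 without WT replicate 3 and -0.80 without WT replicate 1.

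The other H3.1 gene, AT5G65360, had the smallest difference. It was measured at 0.391, 0.612, 0.719 and 0.677 in WT replicates 1 to 4. In petc it was at 0.356, 0.525, 0.594 and 0.492. Number 1 was the lowest sample in both groups, and the petc samples of numbers 2, 3 and 4 lay above the WT sample of number 1. Its log2 difference came to -0.28 ± 0.21 (SE, n = 4 per group), or -0.15 for the first set and -0.40 for the second. Leaving out petc replicate 1 gave -0.15 and leaving out WT replicate 1 gave -0.46.

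The kinesin gene AT2G37420 had a dim probe whose difference was much the same in both sets. Its WT intensities were 0.207, 0.145, 0.202 and 0.187. In petc they were 0.152, 0.0973, 0.139 and 0.145. Number 2 was the lowest sample of each group, and petc replicates 1 and 4 lay above WT replicate 2, so the groups overlapped. The log2 difference was -0.60 ± 0.17 (SE, n = 4 per group), or -0.55 for the first set and -0.66 for the second. An offset of 0.1 before log2 brought it to -0.34, the largest move of any of the 4 under another treatment of low values.

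**Figure D1:**
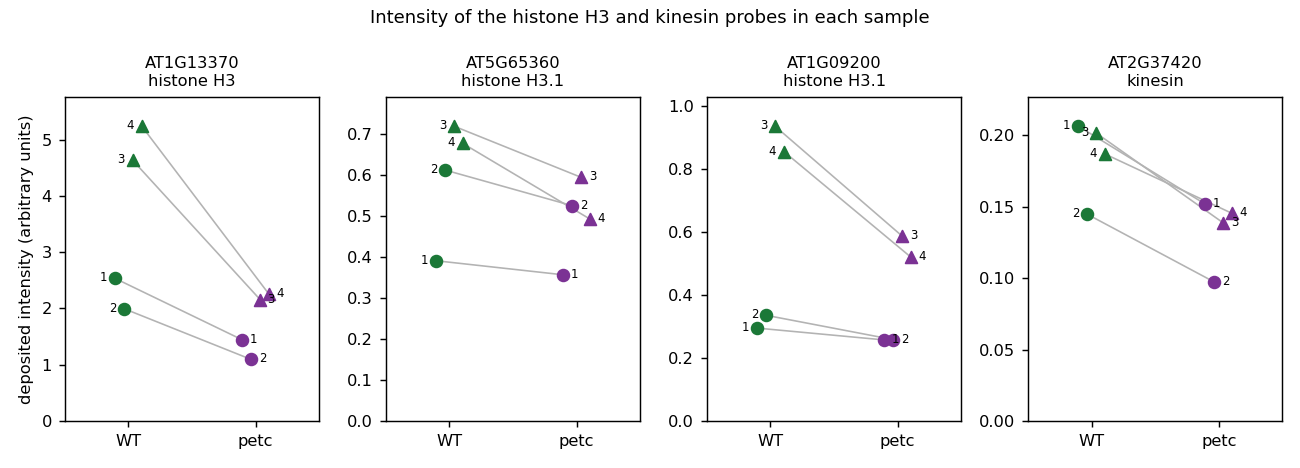
Deposited intensity (arbitrary units, vertical axis from 0) of the 4 probes in each of the 4 WT and 4 petc samples. Points carry the replicate number, circles are numbers 1 and 2, triangles numbers 3 and 4, and lines join samples with the same number. Every line falls from WT to petc, and for AT1G09200 the triangles stand above the circles in both groups.

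For none of the 4 genes did all petc values lie below all WT values, which 15.5% of probes with a value in every sample showed in that direction. Both petc values lay below both WT values in each set for 2 of the 4, AT1G13370 and AT1G09200, against 22.6% of probes. In the limma fit over all 2947 probes tested, AT1G13370 and AT2G37420 were past the adjusted threshold of 0.05, both lower in petc, where 15.3% of probes were lower and past it and 27.9% were past it in either direction. When replicate number was added as a block, all 4 were past it, where 24.4% of probes were lower and past it. With the values as deposited or centred on their medians none of the 4 was past it, though 13.1% and 13.9% of probes were lower and past it. None was past it either when the readings of a group and set were treated as correlated, where 6.18% of probes were lower and past it, nor with the means of each group and set. Nothing is read from these counts, since the genes were chosen on this comparison.

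The median log2 difference of the 4 genes was -0.56, against -0.02 over all probes tested, of which 90% lay between -0.99 and 0.90. Of the tested probes 3.16% had a more negative difference than AT1G13370, 12.7% than AT2G37420, 14.8% than AT1G09200 and 28.2% than AT5G65360. These places describe where the chosen genes lie and are no test of them.

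The difference between the sets was not used in choosing the genes, and it separated them. In deposited intensity, AT1G09200 was 2.85-fold higher in numbers 3 and 4 than in numbers 1 and 2 of WT, and 2.14-fold higher in petc. AT1G13370 was 2.19-fold higher in WT and 1.76-fold in petc. AT5G65360 was 1.43-fold and 1.25-fold higher, and the kinesin gene AT2G37420 1.12-fold and 1.17-fold. On the normalised log2 scale the set difference in WT was 1.47 for AT1G09200, 1.24 for AT1G13370, 0.46 for AT5G65360 and 0.20 for AT2G37420. The median size over tested probes with a value in every WT sample was 0.30. The set difference of AT1G09200 in WT was larger in size than that of 97.6% of these probes, and that of AT1G13370 than that of 96.2%. For AT5G65360 this share was 67.2% and for AT2G37420 34.7%. In petc, among tested probes with a value in every petc sample, the shares were lower. They were 93.9% for AT1G09200, 86.1% for AT1G13370, 40.8% for AT5G65360 and 18.9% for AT2G37420. As set means on this scale, all 4 genes were higher in numbers 3 and 4 in both groups, as were 32.7% of probes with a value in every sample. Not every sample followed. In deposited intensity AT2G37420 was highest in number 1 of both groups (0.207 in WT, 0.152 in petc). AT5G65360 in petc was lower in number 4 (0.492) than in number 2 (0.525). The sets were seen in the arrays and are not in the labels, so no test was made between them.

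The share of each gene's variation over the 8 samples that went with genotype or set differed accordingly. For AT2G37420, 64.2% of the sum of squares lay between petc and WT and 3.69% between the sets. For AT1G13370 the shares were 58.0% and 37.2%. For AT1G09200 they were 14.6% and 81.6%, and for AT5G65360 19.0% and 27.9%, which left 53.1% outside both. Over the probes with a value in every sample the medians were 30.7% for genotype and 24.9% for set. The genes were chosen on the petc against WT comparison, so nothing is read from their genotype shares. The set shares are parts of the same total and are descriptions too.

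**Figure D2:**
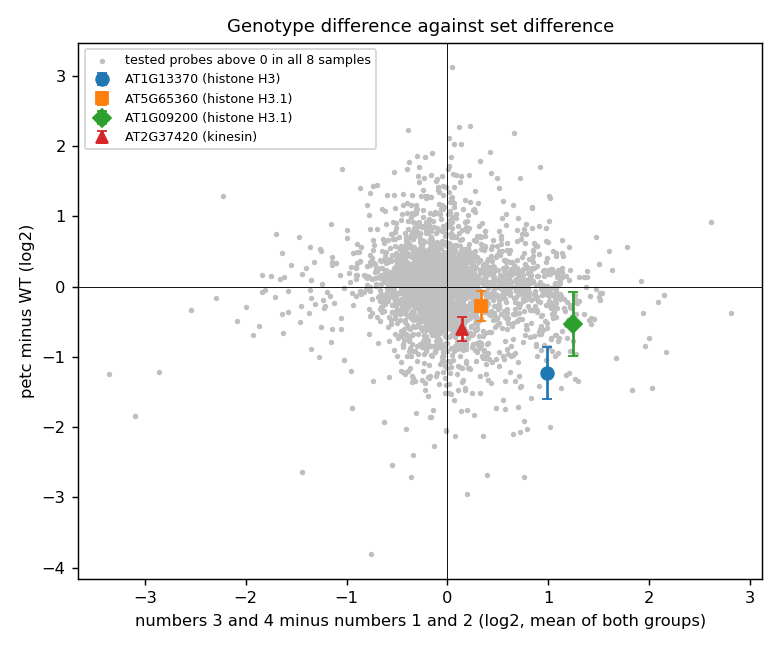
Each grey point is a tested probe with a value in all 8 samples. The horizontal axis is its set difference (numbers 3 and 4 minus numbers 1 and 2, log2, mean of both groups) and the vertical axis its difference between petc and WT (log2). The coloured symbols are the 4 genes, with bars for 1 SE. All 4 lie below 0 on the vertical axis and right of 0 on the horizontal one, AT1G09200 and AT1G13370 farthest to the right.

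The difference between petc and WT was wider in numbers 3 and 4 than in numbers 1 and 2 for all 3 histone genes. The second set minus the first came to -0.51 on the log2 scale for AT1G13370, -0.44 for AT1G09200 and -0.25 for AT5G65360. For the kinesin gene AT2G37420 it was -0.11, but with the values as deposited its difference was -0.51 in the first set and -0.45 in the second, so that order turned with the scaling. Over all probes, limma fitted to the second set by itself put 1033 of 2929 past the adjusted threshold, against 685 of 2941 for the first. The share of all probes with a wider difference in the second set was not counted. The wider difference is therefore not read as a trait of the histone genes. Whether the difference itself changed between sets was not tested.

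The normalised log2 values of AT1G13370 and AT1G09200 ran together over the 8 samples, with Pearson r = 0.86, and r = 0.94 for deviations from the group means. The pair of H3.1 genes had r = 0.73 and 0.68 on the same measures. AT2G37420 and AT5G65360 had r = 0.10, and -0.47 for the deviations. The points share 8 arrays in 2 sets, and the set difference enters every value, so these are descriptions.

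The single-gene probes whose normalised log2 values over the 8 samples were most like each gene were picked by Pearson r among 586 others. For AT1G13370 they were AT3G04210 (r = 0.99), AT3G50350 (0.98) and AT1G28150 (0.97). For AT1G09200 they were AT3G51500, AT5G35100 and AT5G19140, which RefSeq names AILP1, each at r = 0.98. AT3G51500 had an even wider set difference in WT, 2.496 on the log2 scale. For AT5G65360 they were AT1G32160 (r = 0.93), AT5G14910 (0.92) and AT3G08010, named ATAB2 (0.90). For AT2G37420 they were AT1G01250 (r = 0.95), AT2G04540 (0.94) and AT4G24910 (0.92). An r over 0.9 was reached by 35 probes for AT1G09200, 18 for AT1G13370, 6 for AT2G37420 and 3 for AT5G65360. Both the set difference and the petc against WT difference, on which the genes were chosen, enter every r. The likeness is therefore a description only.

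Further genes for histones, kinesins and cell division were hardly covered by single-gene probes. Of 14 genes listed as histone H3, the 3 described here were measured. Of 35 other histone genes, 27 genes for cyclins and cyclin-dependent kinases, 18 genes for DNA replication and 23 genes for tubulins and actins, 0 had a single-gene probe. Whether the samples differed in dividing tissue could therefore not be checked on those markers. Of 21 kinesin genes, AT2G37420 and AT4G14330 had one, and AT4G14330 was listed at 0 in all 8 samples. A search of gene names for words of chromatin added AT1G05490, named chromatin remodeling 31 in RefSeq, which rose in petc. Its WT intensities were 0.470, 0.510, 0.422 and 0.363, and its petc intensities 0.978, 1.15, 1.06 and 1.13. All petc samples lay above all WT samples. In the fit this was a log2 difference of 1.27 ± 0.13 (SE, n = 4 per group, limma adjusted p = 0.000222, range over the alternatives 8.00e-05 to 0.0755), and the call was lost with the means of each group and set (0.0755).

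Probes that the annotation pairs with several genes were left out of the choice, and those whose genes all stand on the histone H3 or kinesin list were examined after the data were seen. Their values are not assigned to any one gene. Of 4 such H3 probes, 2 were lower and 2 higher in petc at all 4 numbers, where 27.3% and 32.9% of probes were lower and higher at all 4. In limma, 1 of the 4 was past the threshold.

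Probe 2392, shared by 3 H3-list genes, fell in petc. It was at 1.81, 1.83, 2.13 and 2.13 in WT replicates 1 to 4. In petc it was at 1.66, 1.67, 1.57 and 1.55, below every WT sample. Petc minus WT was -0.43 ± 0.10 on the log2 scale (SE, n = 4 per group, limma adjusted p = 0.0123, range over the alternatives 0.00471 to 0.317). The call was lost with the values as deposited (adjusted p = 0.0536), after median centring (0.0548), with correlated readings (0.0836), with means of each group and set (0.317) and in numbers 1 and 2 alone (0.0902).

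Probe 2995, shared by 2 H3-list genes, went the other way without passing in the main limma fit. Its WT intensities were 0.392, 0.372, 0.658 and 0.572. Its petc intensities were 0.632, 0.656, 1.36 and 1.18, above WT at each number but overlapping with WT replicate 3. The log2 difference was 0.89 ± 0.29 (SE, n = 4 per group, limma adjusted p = 0.0526, and adjusted p = 0.00102 under the replicate block, range over the alternatives 0.000228 to 0.339). Over 22 settings, the main one among them, it passed in 8. Among the 8 were numbers 1 and 2 alone (limma adjusted p = 0.0151), numbers 3 and 4 alone (0.0121) and the set as a block (0.000228).

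The 2 remaining H3 probes did not pass in the main limma fit. Probe 3127 had a log2 difference of -0.47 ± 0.43 (limma adjusted p = 0.484, and 0.0170 under the replicate block, range over the alternatives 0.00650 to 0.760). It shared the set pattern of AT1G09200, with a WT set difference of 1.22 on the log2 scale. Probe 3667 had 0.23 ± 0.18 (limma adjusted p = 0.405, range over the alternatives 0.0688 to 0.795).

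A kinesin-list probe shared by 3 genes, one of them AT2G37420, was higher in petc at all 4 numbers, opposite to the single-gene probe of AT2G37420. Probe 4181 was at 0.212, 0.233, 0.165 and 0.201 in WT replicates 1 to 4. In petc it was at 0.276, 0.267, 0.227 and 0.249, and only WT replicate 2 and petc replicate 3 crossed. The log2 difference was 0.27 ± 0.13 (SE, n = 4 per group, limma adjusted p = 0.176, and 0.0304 under the replicate block, range over the alternatives 0.0293 to 0.574). Another probe shared by 3 kinesin-list genes, probe 1554, could not be tested, as it had too few values above 0.

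**Figure D3:**
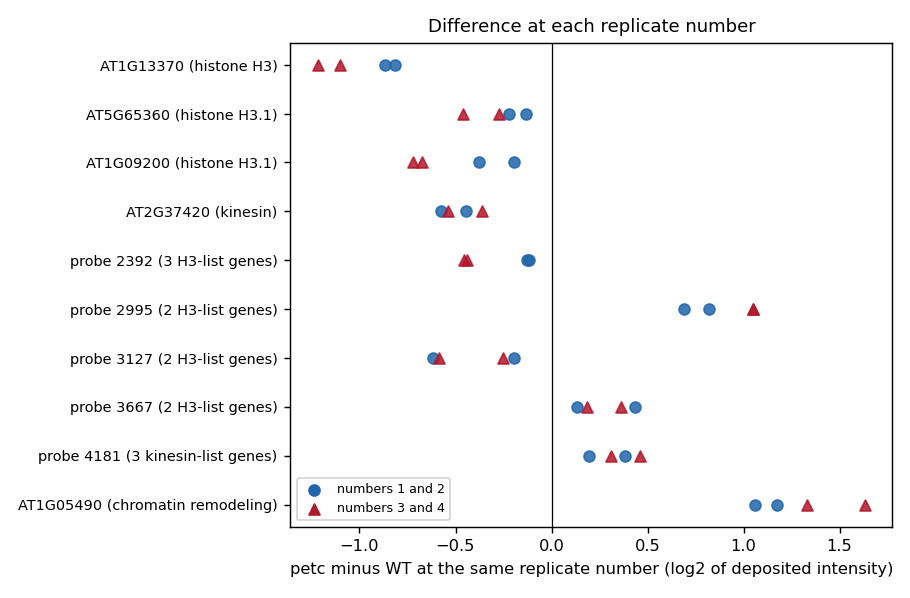
The log2 ratio of deposited intensity, petc over WT, at each replicate number for the 4 genes, the 5 shared probes of the histone H3 and kinesin lists and AT1G05490. Circles are numbers 1 and 2 and triangles numbers 3 and 4. The 4 genes and probes 2392 and 3127 lie left of 0 at all 4 numbers, and probes 2995, 3667 and 4181 and AT1G05490 lie right of 0.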

How the data were processed

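The deposited values are array intensities on a linear scale, 1 column per sample. The sources used here do not give the scanner, the scaling or the unit, so the unit is called arbitrary, and the number of arrays limits the precision. Probes were named through GEO's platform annotation, which pairs 692 probes with 1 gene, 870 with several and 1877 with none. RefSeq's TAIR10.1 gene table held 690 of the 692 and supplied names. No positions are given, since no build is named in the files.

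Values of 0 were taken as missing, the rest were log2 transformed, and the arrays were quantile normalised because column medians differed by 0.131. Probes with at least 3 values per group were tested, 2947 in all and 595 of them with 1 gene. limma 3.58.1 (lmFit, eBayes) in R 4.3.3 compared petc with WT, with Benjamini-Hochberg adjustment and a threshold of 0.05, and was tested on simulated data. Figures were drawn with matplotlib 3.10.9. Intensities in the text are the deposited values, while fold changes and SE come from the normalised values unless stated otherwise.

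The genes named are the 4 chosen, tested genes of the lists, and the 3 single-gene probes most like each of the 4. The genes, lists and alternatives were chosen with earlier results of these data known. The replicate block treats samples with the same number as paired. Deviations from group means correlated with r = 0.542 to 0.623 for the same number, against 0.369 to 0.442 for the other number of a set. The pairing comes from these same data and from no label, and p-values under the replicate block rest on it. Alternatives were other scalings, filters and variance models, an offset of 0.1, the replicate block, treatments of the sets and leaving out each sample.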

Additional observations from a re-analysis of the deposited data

Results flagged for a closer look

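Within-group values were checked for a sample far from the other 3, over 34 groups of 4 samples covering the 4 genes, AT1G05490 and the genes most like the 4. Chance flags about 1 in 20 such groups, and 2 stood out, neither in the histone H3 or kinesin genes. The normalised log2 intensity of AT5G14910 in petc replicate 1 was -0.32, against a median of 0.40 over the other 3. That of AT1G01250 in WT replicate 2 was -0.71, against 0.05 over the other 3. AT5G14910 is among the genes most like AT5G65360 and AT1G01250 among those most like AT2G37420.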

How the results depend on the processing

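The direction of all 4 genes held in all 21 alternatives, with log2 differences of -1.49 to -0.97 for AT1G13370, -0.71 to -0.34 for AT2G37420 (-0.34 with an offset before log2), -0.80 to -0.25 for AT1G09200 and -0.46 to -0.15 for AT5G65360. The probe filters, variance models, blocks and means of each group and set left each difference unchanged. The genes were also chosen on this comparison, so nothing is read from the direction. How many of the 4 genes passed the threshold did not hold, and for the same reason nothing is read from these counts. Against 2 in the main setting, limma gave 4 with the replicate block, 3 under the set block, 3 from numbers 3 and 4 alone, 1 from numbers 1 and 2 alone, and 0 after median centring, with the values as deposited (2 at an unadjusted p below 0.05 in each), with correlated readings and with the means of each group and set (1 at an unadjusted p below 0.05 in each). Leaving out each sample gave 0 to 2: it was 0 without WT replicate 3 or 4 or petc replicate 2, 3 or 4, and 1 without WT replicate 1 or petc replicate 1. Of all probes, 724 of 2947 were lower in petc and past the threshold under the set block. From numbers 3 and 4 alone 558 of 2929 were, and from numbers 1 and 2 alone 352 of 2941. Without each sample it was 337 to 391 of 2947. At an unadjusted p below 0.05, in either direction, were 1119 probes after median centring, 1156 as deposited and 706 with correlated readings. The count over all probes was 823, and 1374 with the replicate block, 1358 with the set as a block, 345 with correlated readings and 0 with the means (585 at an unadjusted p below 0.05). It was 627 to 725 without each sample. The list gene AT1G05490 passed in all but the means of each group and set, where the count was 0 (1 at an unadjusted p below 0.05), and without each sample the count stayed at 1. Besides AT5G65360 and AT1G09200, the replicate block added calls for probes 2995, 3127 and 4181, and it changed none for AT1G05490 and probes 2392 and 3667. With correlated readings and with the means of each group and set, probes 2995 (adjusted p = 0.123 and 0.339), 3127 (0.639 and 0.754) and 4181 (0.480 and 0.574) did not pass. The causes were not tested. Dim probes, such as that of AT2G37420, depend most on the offset.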
